A study of Mus musculus with 4 samples.

Results

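Cytosolic ribosomal proteins build the ribosome that translates nuclear-encoded mRNA. The genes were taken by platform symbols starting Rpl or Rps, limited to protein-coding ribosomal proteins, without pseudogenes, Rps6k kinases, Rps19bp1 and Rps23rg1. The rule found 65 genes of 22180 named alone by a probe set, 41 of the large and 24 of the small subunit. They comprised 58 of the 77 core proteins that carry such symbols and 7 paralogs. Each gene was read on its probe set with the highest mean over the arrays.

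Of the other 19 core genes, 12 (among them Rpl10, Rpl13a and Rps2) were named only on probe sets shared with further genes, and the 7 others were not analysed here. Rps4l and Rpl6l were left out because RefSeq does not list them as protein-coding. Of the 65, 61 reached the floor of 5.475 on the log2 scale (the median of all values) in at least 1 array, 40 large and 21 small. Rpl10l, Rps15, Rps16 and Rps29 did not, and they enter no count below.

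RNA was measured on 4 Affymetrix arrays, 1 per group, from LSK cells, the lineage-negative, Sca-1-positive and c-Kit-positive fraction of mouse bone marrow that holds stem cells and early progenitors. The groups were AMKO 5FU, Ctrl 5FU, AMKO Basal and Ctrl Basal, where 5FU means day 8 after 150 mg/kg of 5-fluorouracil, a pyrimidine analog toxic to dividing cells, and Basal means day 0. All groups were male C57/B6 mice aged 4 months, and AMKO is used as a genotype label because the labels do not explain it. The number of animals behind each array is not stated, and with no replicate no difference below has a replicate error.

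Each ribosomal protein occupies a fixed place on the large or the small subunit, and cells make the set in near-equal numbers. Their mRNAs begin with a pyrimidine tract, the 5′ TOP element, through which growth signalling by mTORC1 and Larp1 sets how well they are translated. Quiescent stem cells are known for a low rate of protein synthesis, and dividing progenitors for a higher one. An array reads mRNA level and not translation.

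The arrays differed in the RNA of other cells. All 10 measured LSK and stem cell genes lay above the floor in every array, and Ly6a, which encodes Sca-1, had no probe set of its own here. Their level moved with 5FU in both genotypes. Kit, which encodes the sort marker c-Kit, had 11.16 in AMKO 5FU and 11.08 in Ctrl 5FU, against 11.87 in AMKO Basal and 11.84 in Ctrl Basal, a log2 difference of -0.71 in AMKO and -0.76 in Ctrl. Meis1 (-0.70 and -0.77), Gata2 (-0.63 and -1.02) and Procr (-0.70 and -1.64) were lower too, in AMKO and in Ctrl, and Cd34 was higher (0.64 and 1.03). In AMKO 4 of the 10 were at least 1.5-fold lower and 1 higher, and in Ctrl 5 were lower and 2 higher. Their summed linear signal was 9616 in AMKO 5FU and 8607 in Ctrl 5FU, against 12812 in AMKO Basal and 12405 in Ctrl Basal. In the Ctrl 5FU array the summed linear signal of 15 measured of 16 mature neutrophil genes was 26272, against 1281 in AMKO 5FU, 1875 in AMKO Basal and 1744 in Ctrl Basal, and 15 of the 15 were above the floor there, against 6, 3 and 4 in the same order. The sum over 10 of 12 B-lineage genes was 5547 in Ctrl 5FU, against 666, 624 and 632 in the other arrays. The sums over 10 granulocyte-monocyte genes were 861, 8028, 842 and 742 in AMKO 5FU, Ctrl 5FU, AMKO Basal and Ctrl Basal, and those over 10 monocyte and macrophage genes were 765, 2213, 592 and 516. Of 8 T and NK genes 3 reached the floor. The sums over the 8 were 1069 in AMKO 5FU and 1276 in Ctrl 5FU, against 445 in AMKO Basal and 493 in Ctrl Basal. Their rise was set mainly by Nkg7, higher by 1.77 in AMKO and 1.86 in Ctrl. Thy1 was higher by 0.88 in AMKO and 0.46 in Ctrl, and Cd3g differed by -0.05 in AMKO and 1.52 in Ctrl. The erythroid sums lay between 1741 and 2175, a range set mainly by Car2. Of the 6 erythroid genes measured, 4 were at least 1.5-fold higher in Ctrl after 5FU and 0 in AMKO, with Slc4a1 higher by 2.72 and Ermap by 2.41 in Ctrl. The Ctrl Basal array was high in 8 skeletal muscle genes, with a sum of 3494, against 428, 652 and 464 in AMKO 5FU, Ctrl 5FU and AMKO Basal. The comparison of AMKO 5FU with AMKO Basal uses neither Ctrl array. The LSK, monocyte and mature neutrophil sums still differed between the AMKO arrays, and so did the T and NK sum, mainly through Nkg7. Of the 15 neutrophil genes, S100a8 (1.21) and Cxcr2 (1.12) were at least 1.5-fold higher in AMKO after 5FU. Csf3r (-0.97) was lower by that much, and the neutrophil sum was 1281 in AMKO 5FU against 1875 in AMKO Basal. The part of these markers in the 5FU differences of the ribosomal protein genes was not tested in either genotype. In bulk RNA, fewer cells of a type and less RNA per cell cannot be told apart, and normalized arrays give relative levels and not ribosomal protein mRNA per cell.

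Promoters from RefSeq (GRCm38.p6) were matched to 52 of the 65 genes by gene identifier, each with 250 bases before and 50 bases from the annotated start. The coding strand, which reads like the mRNA, was searched within 50 bases either side of that start. A run of at least 8 consecutive C or T lay in 40 of the 52 (76.9%), against 35.7% of all 27025 promoters. Searched on both strands over the whole promoter, CCGGAAG, a core of sites bound by Ets factors such as Gabpa, lay in 22 (42.3%), against 9.14% of all promoters. AAGATGG, part of the Yy1 motif, lay in 7 (13.5%), against 6.46%. The GC box GGGCGG lay in 27 (51.9%), against 35.9%. The motifs were counted independently, and overlaps between them were not removed. These are matches of letters, and the annotated start can differ from the start used in LSK cells.

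The 6 stretches below run from 80 bases before the annotated start to 20 bases from it, 5′ to 3′, with runs of at least 8 C or T in capitals. Rps25, Rpl34, Rps7 and Rps27l are shown because they ranked highest, and Rpl22l1 because it ranked lowest, when each gene was ranked on whichever of its AMKO and Ctrl 5FU differences was nearer 0, and Rps6 because its 4 values were nearly equal.
Rps25, chr9:44407634-44407733, plus strand: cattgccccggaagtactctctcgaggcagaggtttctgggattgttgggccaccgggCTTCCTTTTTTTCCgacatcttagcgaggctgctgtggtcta
Rpl34, chr3:130730379-130730478, minus strand: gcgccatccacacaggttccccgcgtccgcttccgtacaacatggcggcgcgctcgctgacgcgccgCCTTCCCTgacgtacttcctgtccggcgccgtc
Rps7, chr12:28635934-28636033, minus strand: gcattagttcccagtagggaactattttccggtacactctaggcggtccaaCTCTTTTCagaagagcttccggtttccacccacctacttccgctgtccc
Rps27l, chr9:66946006-66946105, plus strand: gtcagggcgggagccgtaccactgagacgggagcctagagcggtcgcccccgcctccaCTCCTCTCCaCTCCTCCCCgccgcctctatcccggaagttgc
Rps6, chr4:86857348-86857447, minus strand: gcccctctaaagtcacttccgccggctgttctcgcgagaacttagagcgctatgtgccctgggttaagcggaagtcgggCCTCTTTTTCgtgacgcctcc
Rpl22l1, chr3:28805428-28805527, plus strand: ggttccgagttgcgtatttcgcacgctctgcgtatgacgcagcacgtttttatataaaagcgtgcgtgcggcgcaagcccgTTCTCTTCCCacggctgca
Each of the 6 has such a run. In Rps6 it is 10 bases long and starts 1 base before the annotated start, and in Rps25 it is 14 bases long and starts 22 bases before it. Rpl22l1 was the only one of the 52 genes with TATAAA in the 50 bases before the start (1.92%, against 2.88% of all promoters).

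After 5FU, ribosomal protein genes were higher than at Basal in AMKO and close to Basal in Ctrl. The median log2 difference over the 61 genes was 0.32 in AMKO, with 54 genes above 0 and 7 below. It was 0.05 in Ctrl, with 35 above 0 and 25 below. Over all 14061 genes that reached the floor the medians were 0.03 in AMKO and 0.01 in Ctrl. In AMKO 14 of the 61 were at least 1.5-fold higher, or 23.0%, against 15.4% of all genes, and 1 was lower by that much, against 10.5%. In Ctrl 6 were at least 1.5-fold higher, or 9.84%, against 11.9% of all genes, and 1 lower, against 11.9%. At 2-fold, 3 genes in AMKO (against 4.69% of all genes) and 1 in Ctrl (against 5.02%) were higher, and 0 were lower, against 3.55% of all genes in AMKO and 4.46% in Ctrl. Of all genes at least 1.5-fold different in AMKO, 59.4% were higher, and 72.6% once each array was centred on its median. Differences are between single arrays and have no test.

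**Figure D1:**
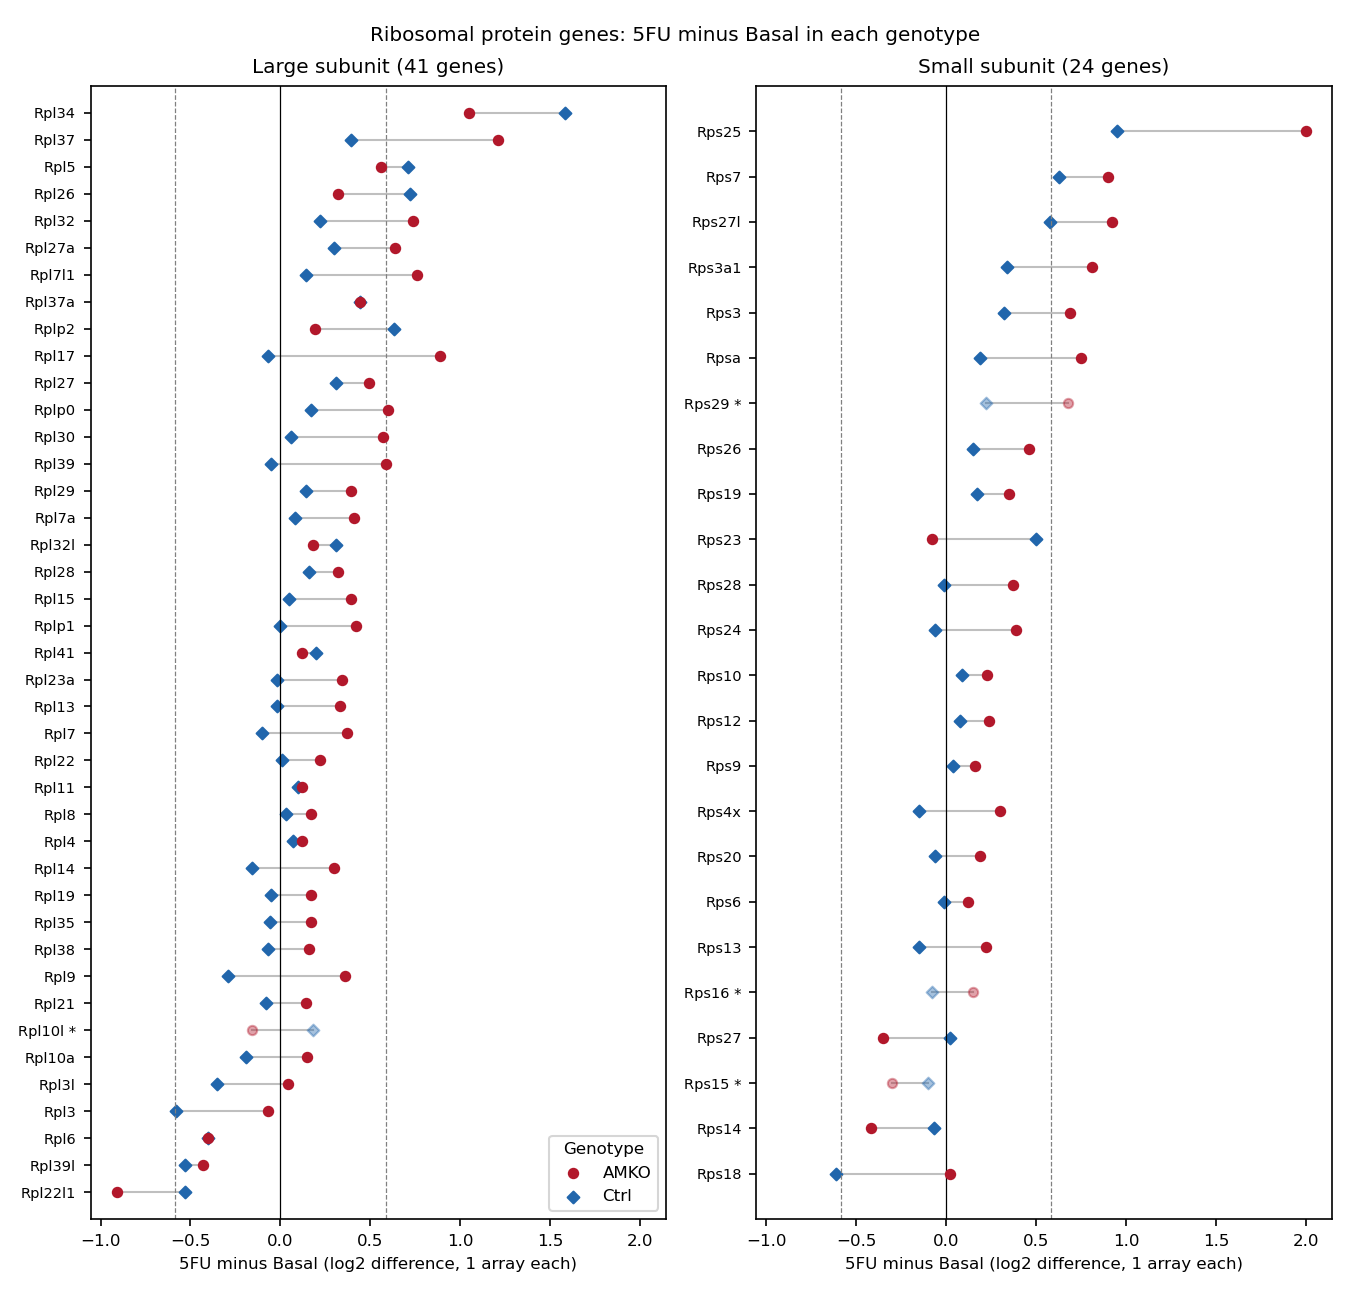
The 5FU minus Basal log2 difference (x axis) of each ribosomal protein gene (rows) is shown for AMKO (circles) and Ctrl (diamonds), with dashed lines at 1.5-fold and pale points with an asterisk for the 4 genes under the floor. Most AMKO points lie right of the Ctrl points, and Rps25, Rpl34, Rps7 and Rps27l lie to the right and Rpl22l1 to the left in both.

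Among small subunit proteins, Rps25, which viral internal ribosome entry sites need to recruit the ribosome in infected cells, had the widest difference of the 61 genes in AMKO. Its log2 values were 9.79 in AMKO 5FU and 9.68 in Ctrl 5FU, against 7.79 in AMKO Basal and 8.73 in Ctrl Basal. Both 5FU arrays lay above both Basal arrays, which held for 32.0% of all genes. AMKO Basal was the lowest, and it was the lowest or tied in 27.9% of all genes. The 5FU difference was 2.0 in AMKO and 0.95 in Ctrl, or 4-fold and 1.93-fold higher. Rps7, one of the ribosomal proteins that bind Mdm2, had 7.72 in AMKO 5FU and 7.51 in Ctrl 5FU, against 6.82 in AMKO Basal and 6.88 in Ctrl Basal. Its groups did not overlap either, with differences of 0.90 in AMKO and 0.63 in Ctrl.

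Rps3, which lines the mRNA entry channel, had 11.78 in AMKO 5FU and 11.83 in Ctrl 5FU, against 11.09 in AMKO Basal and 11.51 in Ctrl Basal. Rps3a1 had 12.82 and 12.89 in the AMKO and Ctrl 5FU arrays, against 12.01 and 12.55 in the AMKO and Ctrl Basal arrays. Rpsa, which is also known as the laminin receptor precursor, had 11.25 and 10.97, against 10.50 and 10.78, in the same order. For these 3 genes both 5FU arrays were above both Basal arrays, and the AMKO Basal array was the lowest. Of all genes with a mean of at least 10 over the 4 arrays, 54.2% had both 5FU arrays above both Basal arrays. AMKO Basal was the lowest or tied in 49.0% of them.

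Rps6, the substrate of the S6 kinases, had 12.94 in AMKO 5FU and 12.95 in Ctrl 5FU, against 12.82 in AMKO Basal and 12.96 in Ctrl Basal. Its 4 values lay within 0.14 of each other (the AMKO minus Ctrl difference at Basal was -0.14), and the groups overlapped. Rps19, which is mutated in human Diamond-Blackfan anaemia, differed by 0.35 in AMKO and 0.17 in Ctrl. Rps26, at the mRNA exit channel, differed by 0.46 in AMKO and 0.15 in Ctrl. Rps14, the gene tied to anaemia in the human 5q deletion syndrome, was lower after 5FU, by -0.42 in AMKO and -0.07 in Ctrl, with 6.44 and 6.46 in the AMKO and Ctrl 5FU arrays, against 6.86 and 6.53 in the AMKO and Ctrl Basal arrays. Rps18 had 8.6 in AMKO 5FU and 8.34 in Ctrl 5FU, against 8.58 in AMKO Basal and 8.95 in Ctrl Basal, a difference of 0.02 in AMKO and -0.61 in Ctrl. Rps23, of the decoding centre, differed by -0.08 in AMKO and 0.50 in Ctrl.

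Rps13 had 11.81 in AMKO 5FU and 11.96 in Ctrl 5FU, against 11.59 in AMKO Basal and 12.11 in Ctrl Basal. AMKO was below Ctrl at both times, by -0.15 at 5FU and -0.52 at Basal. The X-linked Rps4x had 12.03 and 11.93 in the AMKO and Ctrl 5FU arrays, against 11.73 and 12.08 in the AMKO and Ctrl Basal arrays, with AMKO Basal low. Rps28 differed by 0.37 in AMKO and -0.01 in Ctrl, and Rps24, a Diamond-Blackfan anaemia gene in humans, by 0.39 and -0.06. The 3 probe sets of Rps24 ran from 0.14 to 1.21 in AMKO and from -0.45 to 0.57 in Ctrl, so its sign in Ctrl depended on the probe set. Rps9, Rps10 and Rps20 differed by 0.16 to 0.23 in AMKO and by -0.06 to 0.09 in Ctrl. The other Rps9 probe set, of lower level, gave 0.42 in AMKO and 0.92 in Ctrl. Under the floor, Rps29 had 5.16 and 5.00 in the AMKO and Ctrl 5FU arrays, against 4.48 and 4.78 in the AMKO and Ctrl Basal arrays, and Rps15, Rps16 and Rpl10l lay between 3.51 and 5.41.

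Among large subunit proteins, Rpl34 had 9.23 in AMKO 5FU and 8.83 in Ctrl 5FU, against 8.18 in AMKO Basal and 7.25 in Ctrl Basal. The 5FU arrays were both higher, by 1.05 in AMKO and 1.58 in Ctrl, and Ctrl Basal was the lowest. Rpl37 had 6.59 and 6.06 in the AMKO and Ctrl 5FU arrays, against 5.38 and 5.67 in the AMKO and Ctrl Basal arrays, the AMKO Basal value lying under the floor. Rpl5 and Rpl11 form, with 5S rRNA, the particle that binds Mdm2 when ribosome assembly fails. Rpl5 had 7.28 in AMKO 5FU and 7.52 in Ctrl 5FU, against 6.72 in AMKO Basal and 6.81 in Ctrl Basal, and its groups did not overlap. Rpl11 differed by 0.12 in AMKO and 0.10 in Ctrl, on a probe set whose 4 values lay between 5.87 and 5.99. Rpl37a differed by 0.44 in each genotype and Rpl26 by 0.32 in AMKO and 0.72 in Ctrl.

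Many large subunit genes of high level stayed close to each other. Rpl4, which lines the exit tunnel, had 12.72 in AMKO 5FU and 12.75 in Ctrl 5FU, against 12.60 in AMKO Basal and 12.68 in Ctrl Basal. Rpl41, the smallest ribosomal protein, had 12.54 and 12.63 in the AMKO and Ctrl 5FU arrays, against 12.42 and 12.43 in the AMKO and Ctrl Basal arrays. In both genes the 5FU arrays were higher by at most 0.20. Rpl8, Rpl19, Rpl21, Rpl35 and Rpl38 differed by 0.14 to 0.17 in AMKO and by -0.08 to 0.03 in Ctrl. Rpl38, known in mice for its role in translating Hox mRNAs, had 12.23 and 12.11 in the AMKO and Ctrl 5FU arrays, against 12.07 and 12.18 in the AMKO and Ctrl Basal arrays.

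Rpl27 had 11.58 in AMKO 5FU and 11.35 in Ctrl 5FU, against 11.09 in AMKO Basal and 11.04 in Ctrl Basal, without overlap. The other Rpl27 probe set, of lower level, went the other way, with -0.34 in AMKO and -0.08 in Ctrl. Rpl15, Rpl28 and Rpl29 also did not overlap, with differences of 0.32 to 0.39 in AMKO and 0.05 to 0.16 in Ctrl. Of all genes with a mean of at least 10, 54.2% had both 5FU arrays above both Basal arrays. The other Rpl29 probe set, of lower level, gave 1.78 in AMKO and 0.47 in Ctrl. Rpl13, Rpl14 and Rpl23a, which holds a docking site for nascent chain factors, differed by 0.30 to 0.34 in AMKO and by -0.16 to -0.02 in Ctrl, and their groups overlapped. The other Rpl13 probe set, of lower level, gave -0.32 in AMKO and -0.68 in Ctrl. Rpl10a differed by 0.15 in AMKO and -0.19 in Ctrl. Rpl27a was past 1.5-fold in AMKO, with a difference of 0.64 there and 0.30 in Ctrl, but both its Basal values, 5.32 and 5.25, lay under the floor.

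The stalk proteins Rplp0, Rplp1 and Rplp2, which recruit elongation factors, gave unequal values. Rplp1 had 13.33 in AMKO 5FU and 13.13 in Ctrl 5FU, against 12.91 in AMKO Basal and 13.13 in Ctrl Basal. The Ctrl values were equal and the AMKO values lay on either side of them. Rplp0 differed by 0.60 in AMKO and 0.17 in Ctrl. Rplp2 differed by 0.19 in AMKO and 0.63 in Ctrl, and its Ctrl Basal value of 5.23 lay under the floor.

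Rpl3, next to the peptidyl transferase centre, and Rpl6 were on the lower side. Rpl3 had 8.52 in AMKO 5FU and 8.03 in Ctrl 5FU, against 8.59 in AMKO Basal and 8.61 in Ctrl Basal. Most of its difference was in Ctrl, at -0.58 against -0.07 in AMKO. Its 3 probe sets ran from -0.07 to 0.94 in AMKO and from -0.58 to 0.58 in Ctrl, so its direction depended on the probe set. Rpl6 differed by -0.40 in each genotype, and its values were 0.49 higher in AMKO than in Ctrl at 5FU and at Basal.

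**Figure D2:**
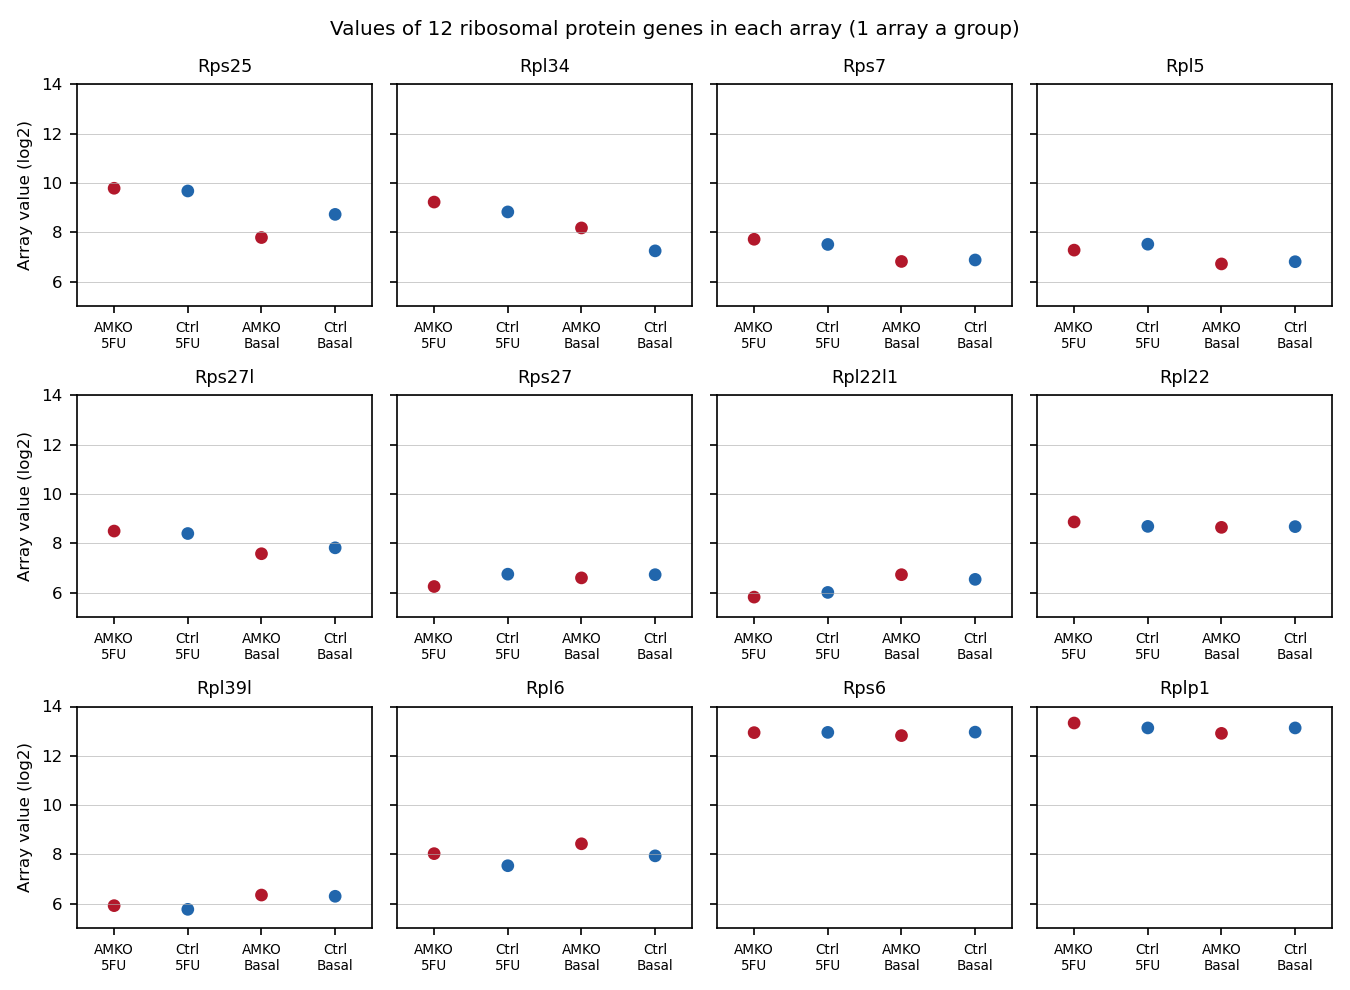
Log2 values (y axis) of 12 ribosomal protein genes in the 4 arrays (x axis, AMKO circles red and Ctrl circles blue, 1 array a group) are shown, and heights compare arrays within a gene and not genes. Rps25, Rpl34, Rps7, Rpl5 and Rps27l are higher in both 5FU arrays, Rpl22l1 and Rpl39l are lower, and Rps6 stays between 12.82 and 12.96.

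The 25 genes with several probe sets of their own show how far a value depends on the probe set. The range of the 5FU difference between probe sets of a gene had a median of 0.31 in AMKO and 0.28 in Ctrl, and a highest value of 1.54 in AMKO (Rpl7a) and 1.16 in Ctrl (Rpl3). The probe sets differed in sign for 7 genes in AMKO and for 10 in Ctrl. Rps12, with 8 probe sets, ran from 0.24 to 0.53 in AMKO and from -0.01 to 0.41 in Ctrl, whereas both probe sets of Rpsa gave 0.75 and 0.80 in AMKO and 0.18 and 0.19 in Ctrl. Most probe sets of Rps12, both of Rpl23a and some of Rps19 had identical values in every array. These cannot be counted as separate readings, and the range of 0 for Rpl23a enters the medians above. Ribosomal protein genes have many near-identical pseudogenes, so probe sets can share signal with them. The 55 probe sets at or above the floor that name a ribosomal protein gene together with others had median 5FU differences of 0.25 in AMKO and 0.01 in Ctrl.

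Both 5FU arrays lay above both Basal arrays for 29 of the 61 genes, which 32.0% of all genes did, and below them for 4, against 27.7% of all genes. The 4 were Rpl22l1, Rpl39l, Rpl3 and Rps14. Across the 61 genes, AMKO and Ctrl 5FU differences correlated with r = 0.650 (Pearson) and rho = 0.583 (Spearman), against r = 0.566 and rho = 0.621 across all genes. No array enters both differences, but whether the arrays were normalized together is not stated, and genes are not independent replicates.

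The median 5FU difference was 0.325 over 40 large and 0.30 over 21 small subunit genes in AMKO, and 0.04 over large and 0.08 over small in Ctrl. In AMKO 8 large (20%) and 6 small subunit genes (28.6%) were at least 1.5-fold higher, against 15.4% of all genes, and in Ctrl 4 large (10%) and 2 small (9.52%), against 11.9%. The SDs across genes were 0.38 for large and 0.52 for small in AMKO, and 0.39 for large and 0.33 for small in Ctrl. For the 5FU differences the sign of the gap between the subunit medians changed with the genes chosen. Over core proteins alone the AMKO medians were 0.34 for large and 0.27 for small, and over genes with a mean of at least 10 they were 0.33 and 0.35. The AMKO minus Ctrl difference at 5FU had medians of 0.115 for large and 0.02 for small subunit genes, and at Basal the medians were -0.14 for large and -0.24 for small. These genotype gaps kept their sign under each alternative normalization, floor, probe set rule and gene choice, with large minus small between 0.09 and 0.15 at Basal and between 0.075 and 0.135 at 5FU, and they have no test.

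AMKO and Ctrl were set against each other at each time. At Basal the AMKO values were lower than Ctrl for 49 of the 61 genes and higher for 12, with a median of -0.16, against 0.00 over all genes. At 5FU they were higher for 42 and lower for 16, with a median of 0.09, against 0.06 over all genes. The AMKO Basal array was the lowest of the 4, or tied for it, for 45 of the 61 genes, against 27.9% of all genes. The AMKO 5FU array was the highest or tied for 35, against 32.5% of all genes. At least 1.5-fold differences were few. At Basal Rpl34 (0.93) and Rplp2 (0.79) were higher in AMKO, against 2.51% of all genes, and Rps25 (-0.94), Rpl32l (-0.88) and Rpl7l1 (-0.59) were lower, against 3.63%. At 5FU Rpl17 (0.79) and Rpl30 (0.66) were higher, against 4.15%, and Rpl32l (-1.01) was lower, against 5.33%. Rpl30 had 5.69 in AMKO 5FU, its only value at the floor, against 5.03 in Ctrl 5FU, 5.12 in AMKO Basal and 4.97 in Ctrl Basal, so the size of its difference is uncertain. At 2-fold, 0 genes were higher or lower at Basal, against 0.228% and 0.697% of all genes. At 5FU 0 were 2-fold higher, against 0.74%, and Rpl32l was lower, against 2.63%.

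The AMKO 5FU difference exceeded the Ctrl one for 49 of the 61 genes and fell short of it for 10, and the gap between both differences (AMKO minus Ctrl) had a median of 0.27, against 0.05 over all genes. It was at least 1.5-fold for 7 genes, all with AMKO the larger, or 11.5%, against 9.93% of all genes. They were Rps25 (1.05), Rpl17 (0.96), Rpl37 (0.82), Rpl9 (0.65), Rpl39 (0.64), Rps18 (0.63) and Rpl7l1 (0.62). On other probe sets of lower level the gap was 0.04 for Rpl9, and 0.03 and -0.09 for Rps18. No gene passed in the other direction, against 7.6% of all genes. At 2-fold only Rps25 passed, against 2.57% of all genes, and 0 in the other direction, against 2.94%. The lowest were Rps23 (-0.58), Rpl34 (-0.53), Rplp2 (-0.44) and Rpl26 (-0.40). Rpl17, at the exit tunnel, had 9.06 in AMKO 5FU and 8.27 in Ctrl 5FU, against 8.17 in AMKO Basal and 8.34 in Ctrl Basal, so that AMKO 5FU alone was high. Rpl9 had 10.75 and 10.65 in the AMKO and Ctrl 5FU arrays, against 10.39 and 10.94 in the AMKO and Ctrl Basal arrays, with AMKO Basal low and Ctrl Basal high.

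These differences moved with level. Genes with a mean of at least 10 over the 4 arrays, a limit chosen after the values were seen, included 30 of the 61 ribosomal protein genes (49.2%) and 714 of all genes (5.08%). Over those 30 the median 5FU difference was 0.335 in AMKO, with 30 of 30 above 0, and 0.035 in Ctrl, with 16 above and 13 below. Over the 714 genes, which include the 30, it was 0.24 in AMKO and 0.12 in Ctrl, so genes above that limit were also higher in AMKO. The 714 were not matched in level to the 30, as 523 of them, but 3 of the 30, had a mean from 10 to 11. From 12 upward the AMKO median was 0.17 over 14 ribosomal protein genes and 0.14 over all 39 genes. The Ctrl medians there were 0.015 and -0.02. From 11 to 12 the AMKO medians were 0.37 and 0.295, and the Ctrl medians 0.04 and 0.11. In AMKO 4 of the 30 were at least 1.5-fold higher, against 24.2% of the 714, and in Ctrl 0 of the 30 were, against 9.8% of the 714. None of the 30 was lower by that much after 5FU, against 5.74% of the 714 in AMKO and 6.86% in Ctrl. Between genotypes 0 of the 30 were 1.5-fold different, against 1.12% higher and 0.42% lower at 5FU and 0.28% higher and 1.54% lower at Basal. For the gap between the 5FU differences 1 of the 30 passed, against 5.6%, and 0 in the other direction, against 0.98%. At Basal the AMKO minus Ctrl median was -0.19 over the 30, with 29 of 30 below 0, and -0.06 over the 714. For means from 11 to 12 this median was -0.31 over 13 ribosomal protein genes and -0.10 over all 152 genes. From 12 upward it was -0.15 over 14 ribosomal protein genes and -0.14 over all 39 genes, so there the 2 were close. AMKO Basal was the lowest or tied in 29 of the 30, against 49.0% of the 714, and AMKO 5FU the highest or tied in 17, against 46.9%. Both 5FU arrays lay above both Basal arrays for 15 of the 30, against 54.2% of the 714, and below them for 0, against 22.1%. The AMKO and Ctrl 5FU differences correlated less over the 30 (Pearson r = 0.580, Spearman rho = 0.485) than over the 714 (r = 0.829, rho = 0.818). The SD across genes was 0.19 in AMKO and 0.15 in Ctrl over the 30, against 0.51 and 0.45 over the 714. How far a normalization step made this level-dependent shift was not tested.

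**Figure D3:**
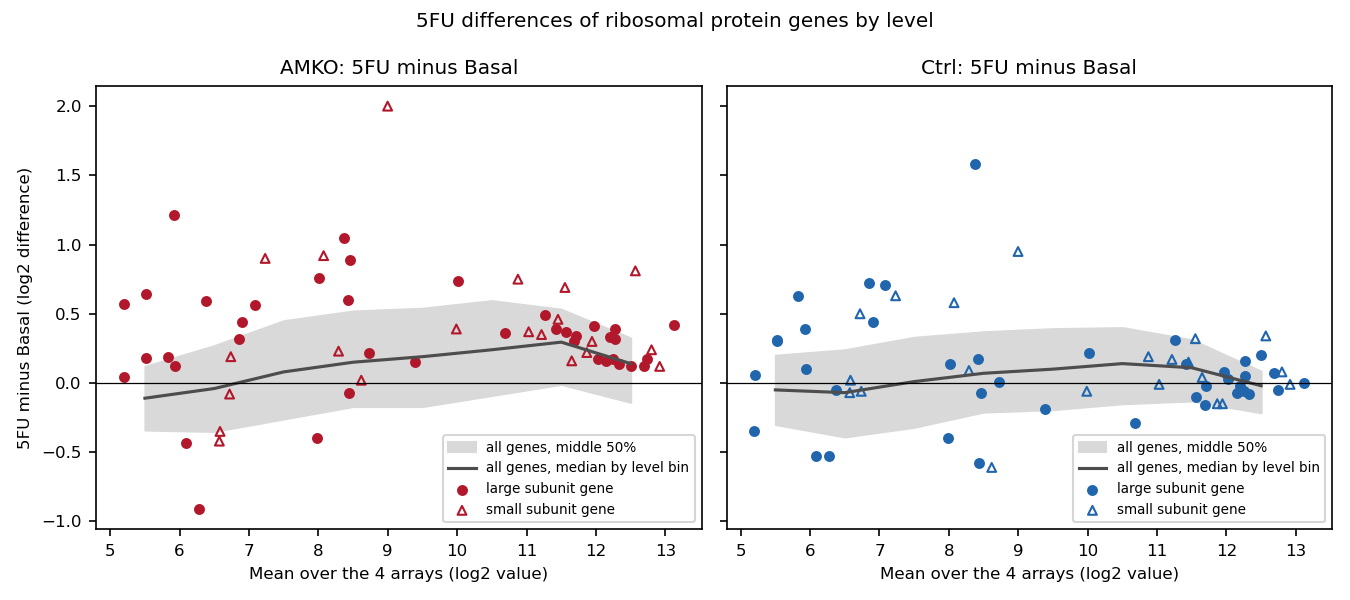
The 5FU minus Basal log2 difference (y axis) in AMKO (left) and Ctrl (right) is plotted against the mean log2 value over the 4 arrays (x axis) for large (filled circles) and small subunit genes (open triangles), with the median (line) and the middle 50% (grey) of all genes in bins of 1 on the log2 scale. Above 10 the ribosomal protein genes lie between 0.12 and 0.81 in AMKO and between -0.29 and 0.34 in Ctrl, and the widest differences are at lower levels.

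Paralogs, some of which can take the place of a core protein on the ribosome, are given here beside their parent genes, with no test of the difference between them. Rps27l, a p53-induced relative of Rps27, had 8.5 in AMKO 5FU and 8.40 in Ctrl 5FU, against 7.58 in AMKO Basal and 7.82 in Ctrl Basal. It was higher by 0.92 in AMKO and 0.58 in Ctrl without overlap. Rps27 had 6.25 and 6.75 in the AMKO and Ctrl 5FU arrays, against 6.6 and 6.73 in the AMKO and Ctrl Basal arrays, with the AMKO 5FU array low. Rpl22l1 had 5.82 in AMKO 5FU and 6.01 in Ctrl 5FU, against 6.73 in AMKO Basal and 6.54 in Ctrl Basal. It was lower by -0.91 in AMKO and -0.53 in Ctrl. Rpl22, its parent, an RNA-binding protein of the large subunit, differed by 0.22 in AMKO and 0.01 in Ctrl.

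Rpl39l, known from the testis, was lower by -0.43 in AMKO and -0.53 in Ctrl, with 5.92 and 5.77 in the AMKO and Ctrl 5FU arrays, against 6.35 and 6.30 in the AMKO and Ctrl Basal arrays. Rpl39 differed by 0.59 in AMKO and -0.05 in Ctrl. Rpl7l1 differed by 0.76 in AMKO and 0.14 in Ctrl, and Rpl7 by 0.37 in AMKO and -0.10 in Ctrl. Rpl32l was lower in AMKO than in Ctrl at both times, with 5.14 in AMKO 5FU and 6.15 in Ctrl 5FU, and 4.96 in AMKO Basal and 5.84 in Ctrl Basal. Both AMKO values lay under the floor, so the size is uncertain. Its parent Rpl32 was 0.25 higher in AMKO at 5FU and 0.27 lower at Basal (-0.27), on a probe set with values from 9.64 to 10.38. Rpl3l, the striated muscle paralog of Rpl3, reached the floor only in Ctrl Basal (5.49), against 5.10, 5.14 and 5.06 in AMKO 5FU, Ctrl 5FU and AMKO Basal. Ctrl Basal was also the array with the high skeletal muscle sum of 3494, and the part of muscle RNA in the Rpl3l value was not tested.

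Other genes of the translation machinery, from lists made with earlier results of these data known, give the setting. Of all genes, 15.4% in AMKO and 11.9% in Ctrl were at least 1.5-fold higher, and 10.5% and 11.9% were lower. Mitochondrial ribosomal proteins had higher medians than cytosolic ones, 0.675 in AMKO and 0.38 in Ctrl over 70 genes, and 40 of them in AMKO and 15 in Ctrl were at least 1.5-fold higher, with none lower. Mrpl54 had 9.03 and 8.82 in the AMKO and Ctrl 5FU arrays, against 7.61 and 7.83 in the AMKO and Ctrl Basal arrays. Nucleolar biogenesis factors had medians of 0.51 in AMKO and 0.305 in Ctrl (14 and 7 of 40 higher), with Nhp2, of the box H/ACA particles, higher by 0.96 and 0.91. Ribosome assembly factors had 0.42 in AMKO and 0.255 in Ctrl (6 and 3 of 16 higher), with Bccip, whose yeast relative is a chaperone of Rpl23, higher by 0.94 and 1.18. For initiation factors the medians were 0.41 in AMKO and 0.19 in Ctrl (7 and 5 of 27 higher, 1 lower in each). Eif1ax was higher by 1.15 and 0.79, and Eif4a2, the helicase paralog, was lower by -0.64 and -0.73.

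Genes that share the 5′ TOP element with the ribosomal proteins also had a higher median in AMKO than in Ctrl. Their medians were 0.19 in AMKO and -0.03 in Ctrl over 16 genes, 3 and 1 of them at least 1.5-fold higher and 0 and 1 lower. For each list here, the shares of all genes were 15.4% and 11.9% higher and 10.5% and 11.9% lower. Fau, which encodes a small subunit protein outside the naming rule, had 11.87 in AMKO 5FU and 11.78 in Ctrl 5FU, against 11.03 in AMKO Basal and 11.31 in Ctrl Basal. Tpt1 differed by 0.18 in AMKO and -0.61 in Ctrl, and Eef1a1, the elongation factor that delivers aminoacyl-tRNA, by -0.15 and -0.23. Elongation factors and their partners, 8 of 11 of which the 5′ TOP list also holds, had medians of 0.22 in AMKO and -0.02 in Ctrl (2 and 0 higher, 0 and 1 lower). Over 17 growth signalling genes, which differed in both directions, the medians were 0.06 in AMKO and 0.04 in Ctrl (0 and 1 at least 1.5-fold higher, 2 and 1 lower). Rheb, which activates mTORC1, differed by 0.44 in AMKO and 0.75 in Ctrl, and Sesn2 by -0.84 and -0.05. Larp1 differed by 0.07 in AMKO and 0.01 in Ctrl, Mtor by 0.31 and 0.04, Myc by -0.34 and -0.16, and Ddit4, an mTORC1 inhibitor, by -0.90 and -0.63.

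**Figure D4:**
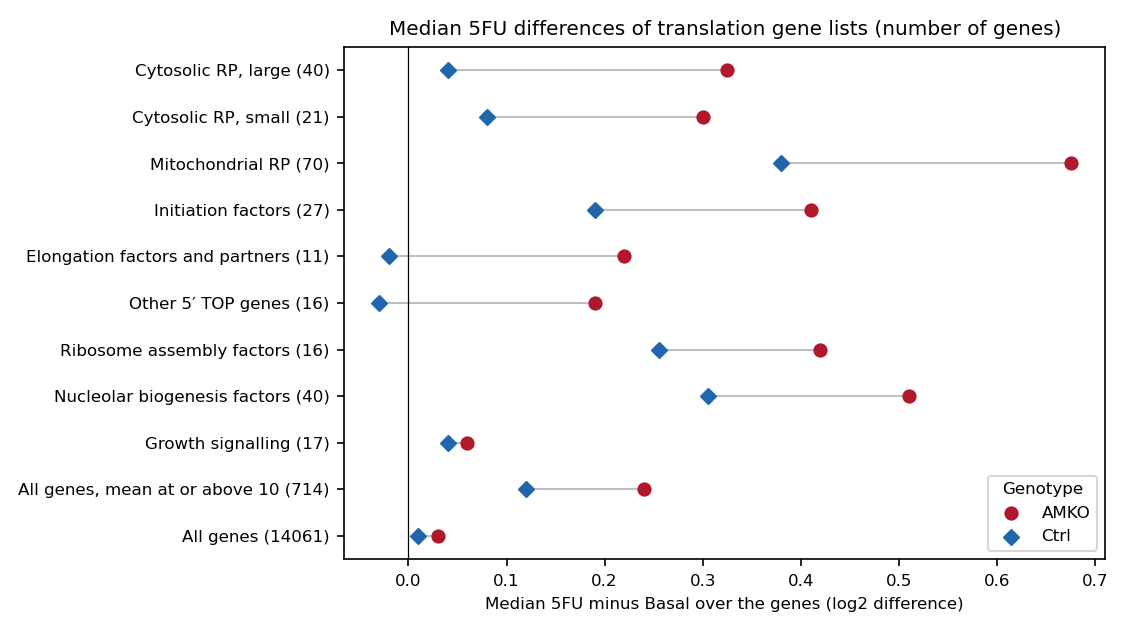
Median 5FU minus Basal log2 differences (x axis) in AMKO (circles) and Ctrl (diamonds) are shown for ribosomal protein genes, other translation gene lists and all genes, with the number of genes in brackets. Both cytosolic rows sit at 0.30 or more in AMKO and under 0.1 in Ctrl, and mitochondrial ribosomal proteins sit at 0.675 and 0.38.

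The average 5FU effect over both genotypes was tested with an additive limma fit over all 14061 genes, which takes the difference between the genotypes' 5FU responses as error. It called 0 of the 61 genes at an adjusted p under 0.05, and 0 of all genes (percent called 0). At an unadjusted p under 0.05 it had 14 of the 61, 11 higher and 3 lower, or 23.0%, against 27.8% of all genes. Rpl34 had a log2 effect of 1.32 ± 0.19 (SE, limma, adjusted p 0.0732), Rps25 of 1.48 ± 0.30 (limma, adjusted p 0.0953), Rps7 of 0.77 ± 0.16 (limma, adjusted p 0.0953) and Rpl22l1 of -0.72 ± 0.18 (limma, adjusted p 0.121). The 61 adjusted p-values of limma ran from 0.0732 to 0.944 for 5FU and from 0.906 to 1 for AMKO. With robust estimation limma called Rpl34 (adjusted p 0.0269), where 9.35% of all genes were called, and after quantile normalization it called Rpl34 too (adjusted p 0.0479), where 6.74% were.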

How the data were processed

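Total RNA of 4 sorted samples was hybridised to Affymetrix arrays, 1 per group, after column purification and biotin labelling, per the labels' protocols. The authors deposited 1 value per probe set and array, taken here to be log2 from their range of 1.99 to 13.43. Steps of background correction, summarization and normalization were not given in the sources used here. The array medians were 5.43 to 5.55, and the values were used without further scaling. The number of arrays limits the precision, and no replicate error exists.

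Of 34472 probe sets, 23521 named 1 gene in the platform annotation, 1814 several and 9137 none. Symbols were updated by Entrez identifier for 23328, using a RefSeq table of GRCm38.p6 for names. A gene took its probe set with the highest mean and was kept when its highest value was at least 5.475, which left 14061 of 22180 genes. Differences of single arrays have no test. The additive fit used limma 3.58.1 in R 4.3.3 (intensity trend, genotype and treatment terms, 1 residual degree of freedom, Benjamini-Hochberg adjustment over all kept genes, threshold 0.05). Its code was run on simulated data whose 5FU effects were equal in both genotypes. That run checked the code and could not test the error of the fit on these arrays. Tables and plots were made with Python 3.11.15, pandas 2.3.3 and matplotlib 3.10.9.

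The members and lists were chosen with earlier results of these data known. Genes were named by a rule: 6 at each end, ranked on the 5FU difference nearer 0 where AMKO and Ctrl shared a sign (5 were lower), the 4 highest and 4 lowest by each other difference, paralogs with their parents, and a set of fixed genes. Others named were chosen after their values were seen. Alternatives were quantile normalization, median centring, averaged probe sets, no floor or a higher one (the 75th percentile), core proteins alone, a larger (2-fold) and a smaller fold size, and limma settings. The split at a mean of 10 and a background without marker genes of other cells were added after the data were examined.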

Additional observations from a re-analysis of the deposited data

Results flagged for a closer look

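With 1 array in each group, no array could be tested as standing apart from its group. Effects of opposite sign under the same contrast were picked out, and the differences between them were not tested. The median AMKO minus Ctrl difference of the ribosomal protein genes was 0.09 at 5FU and -0.16 at Basal, and the median difference of the 5FU differences was 0.27. Among genes with 5FU differences of opposite sign and at least 1.5-fold apart, Rpl17 had 0.89 in AMKO and -0.07 in Ctrl (0.96 apart), Rpl9 0.36 and -0.29 (0.65), Rpl39 0.59 and -0.05 (0.64), and Rps18 0.02 and -0.61 (0.63). For Rpl9 and Rps18 the opposite signs rested on the probe set used. Another probe set of Rpl9 gave -0.16 in AMKO and -0.20 in Ctrl. Those of Rps18 gave -0.27 in AMKO and -0.30 in Ctrl, and 0.01 and 0.10.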

How the results depend on the processing

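No paired analysis was possible because the labels give no replicate numbers and each group is 1 array. A median or a gene's difference was taken as moved when it changed by 0.1 or more on the log2 scale, and a count when it changed by more than 1.5 times or to or from 0. Of 236 medians and counts under alternatives 51 moved, 42 of them counts and 9 medians. A change of sign was looked for only in values past 1.5-fold. No median was that large, so that check could not find any among them. Quantile normalization lowered the AMKO 5FU median to 0.2075 (large subunit 0.217, small 0.166) and centring raised it to 0.43 (0.435 and 0.41), against medians over all genes of 0.02 and 0.15. Centring moves all genes by about that shift. The Ctrl 5FU median stayed between 0.035 and 0.09. The AMKO minus Ctrl median at Basal was -0.06 below a mean of 10 (large subunit -0.02), and the large subunit gave -0.03375 after quantile normalization. Of all genes at least 1.5-fold different, the share that was higher after centring and as deposited was 72.6% and 59.4% for 5FU in AMKO, 22.2% and 40.9% for AMKO at Basal, and 67.1% and 56.6% for the gap between the 5FU differences.

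Small counts of members past a fold size moved with that size, the level and the floor. At 2-fold the higher and lower counts were 3 and 0 for 5FU in AMKO, 1 and 0 in Ctrl, 1 higher for the gap between both 5FU differences, 0 and 0 for AMKO at Basal, and 0 higher at 5FU. At a smaller size, 0.322 on the log2 scale, the higher and lower counts were 30 and 5 for 5FU in AMKO (all genes 27.9% and 21.8%), 11 and 6 in Ctrl (24.0% and 22.7%), 29 and 7 for the gap between both 5FU differences (23.9% and 17.3%), 4 and 13 for AMKO at Basal (11.4% and 12.5%), and 9 and 3 at 5FU (16.4% and 11.4%). With a mean of at least 10 they were 4 and 0 in AMKO and 0 and 0 in Ctrl, 1 higher for that gap, and 0 and 0 for AMKO at Basal and at 5FU. The Ctrl lower count of 1 became 2 after quantile normalization, and 0 after centring or with averaged probe sets. Quantile normalization gave 1 lower gene for that gap. The AMKO Basal lower count of 3 became 6 after centring and 1 over core proteins. With the floor at the 75th percentile, the lower count in AMKO after 5FU was 0, the higher count at Basal 1, and the AMKO counts at 5FU 1 and 0. Over core proteins the lower counts in AMKO after 5FU and at 5FU were 0. For named genes, 92 of 510 values moved and none past 1.5-fold changed sign.

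The additive limma fit called 1 member, Rpl34, with robust estimation and after quantile normalization (adjusted p 0.0479), and 3 with the higher floor (Rpl34, Rps25 and Rps27l, where 15.7% of all genes were called). Leaving out each array in turn, with treatment alone in the fit, set 1 array against 2. The lone array was assumed to vary like the pair. Calls in so small a design say nothing about stability, and their counts are not given. Without the marker genes of other cells, the Ctrl background for 5FU at 1.5-fold was 11.7% (higher) and 11.9% (lower) of 14004 genes.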
